A study of Mus musculus with 12 samples.

Results

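The axon guidance ligands and receptors of the mouse comprise 68 of the 55862 genes in the expression table. The rule that defines them uses names and gene type and no measured value, and takes the protein-coding genes of the semaphorin classes 3 to 7, the plexins, the ephrins and their Eph receptors, the Slits and Robos, the netrins, the Unc5 receptors, Dcc and Neo1. RNA-sequencing had been carried out on 12 samples in 4 groups of 3, all from mouse brain. The labels give the strain as C57BL/6 for every sample, and the study's methods give C57BL/6J for the NPC groups. ASTs were astrocytes cultured from the cerebral cortex of newborn mice after the meninges had been taken away, grown in serum-containing medium and collected at day 0 of sphere culture as the negative control. A-iSCs were ASTs that had spent 5 days as floating spheres on agarose. P56-NPCs, a positive control, were the cells dissociated from the subependymal zone of adult mice at postnatal day 56. P0-NPCs, the other positive control, were the cells dissociated from the hippocampus at postnatal day 0. No transgene or marker-based sorting is described for any group in the sources used here. Centrifugation is described for ASTs, P56-NPCs and P0-NPCs, and straining for P56-NPCs. The AST samples shared their source with the A-iSCs. The study's statistics section speaks in general of 3 independent experiments. The sources used here do not say whether the 3 sequenced samples of a group came from separate animals or cultures. The p-values therefore measure only the spread between these samples, which may be technical.

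Axon guidance genes were named for steering growth cones, and they also act in cell migration, tissue boundaries, vessel growth and the positioning of glia. Semaphorins signal through plexins, with neuropilins as co-receptors for most class 3 members. Ephrins are bound to the membrane, the A type by a lipid anchor and the B type by a transmembrane segment, and they signal through Eph receptor tyrosine kinases into both contacting cells. Slits are secreted repellents recognised by Robo receptors, and netrins are secreted cues that attract through Dcc and Neo1 and repel through Unc5 receptors. In the brain, astrocytes, oligodendrocytes, vascular cells and neurons all use members of these families.

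Levels are given in FPKM, the fragments counted on a gene corrected for its length in kilobases and for the size of the library, so they may be compared between genes. Between 17077780 and 24452419 fragments were counted on genes per sample, and 3 fragments, taken as the floor of detection, equalled 0.0206 to 0.0374 FPKM for a gene of 5 kilobases. This floor covers counting error only. AST replicate 2 and A-iSC replicate 3 stood apart from the rest of their groups, and the values without them are given beside the counts of called members and pathway genes. The share of fragments on mitochondrial genes was 16.5% to 17.6% in P56-NPCs and 2.94% to 7.03% in the other groups, and its part in the comparisons with P56-NPCs was not tested. The groups also differed in marker genes of cell types. The summed level of 7 oligodendrocyte markers was 11457 to 13165 FPKM in P56-NPCs and 16.1 to 79.6 in the other groups. The sum of 8 neuronal markers was 1039 to 1270 in P0-NPCs, 311 to 375 in P56-NPCs and 82.0 to 152 in the cultured cells. Mural and fibroblast markers (7 genes) summed to 1881 to 2267 in ASTs and to 16.3 to 135 elsewhere. These 7 genes did not all follow their sum, as 4 reached a mean of 1 FPKM in ASTs and 7 in P0-NPCs. Col1a1 was higher in ASTs than in P0-NPCs (means 158 and 34.2), and Pdgfrb was not (11.1 and 12.2). Microglial markers (6 genes) summed to 1084 to 1495 in A-iSCs, 435 to 458 in P56-NPCs and 63.6 to 127 elsewhere. The endothelial sum (6 genes) was 75.5 to 79.5 in P0-NPCs and 1.62 to 6.65 elsewhere, with Cldn5 listed at 0 in every AST sample. Astrocyte markers (8 genes) summed to 143 to 161 in ASTs, 238 to 303 in P0-NPCs, 1211 to 2466 in A-iSCs and 2834 to 3072 in P56-NPCs. Neural stem cell markers (6 genes) summed to 688 to 843 in ASTs, 771 to 850 in A-iSCs, 726 to 843 in P0-NPCs and 181 to 217 in P56-NPCs. Sox2 was at 122 to 158 in ASTs and 180 to 234 in A-iSCs, and Nes at 183 to 209 and 64.4 to 73.7. Oligodendrocyte precursor markers (5 genes) summed to 516 to 522 in P56-NPCs and 53.7 to 170 elsewhere. Ependymal markers (4 genes) summed to 225 to 298 in P56-NPCs and 49.1 to 88.6 elsewhere. In bulk RNA, fewer cells of a type and less RNA per cell cannot be told apart, and the part of these cell types in the differences below was not tested.

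Every member exceeded the floor in some sample, and 60 of the 68 exceeded it in all 12. A mean of at least 1 FPKM in any group was reached by 64 members, and Epha1, Ntn5, Robo3 and Sema3g stayed below it in every group. The number of members at or above 1 FPKM was 44 in ASTs, 44 in A-iSCs, 46 in P56-NPCs and 59 in P0-NPCs. At or above 10 FPKM there were 16, 6, 11 and 23 members in the same order, so A-iSCs had the fewest abundant members and P0-NPCs the most. Of the 64 members, 32 (50%) had their highest mean in P0-NPCs, 19 (29.7%) in ASTs, 10 (15.6%) in P56-NPCs and 3 (4.69%) in A-iSCs. Among all 13660 protein-coding genes at this level, the corresponding shares were 25.8%, 31.9%, 25.9% and 16.3%. The 3 members highest in A-iSCs were Sema6a, Plxnc1 and Efna1.

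**Figure D1:**
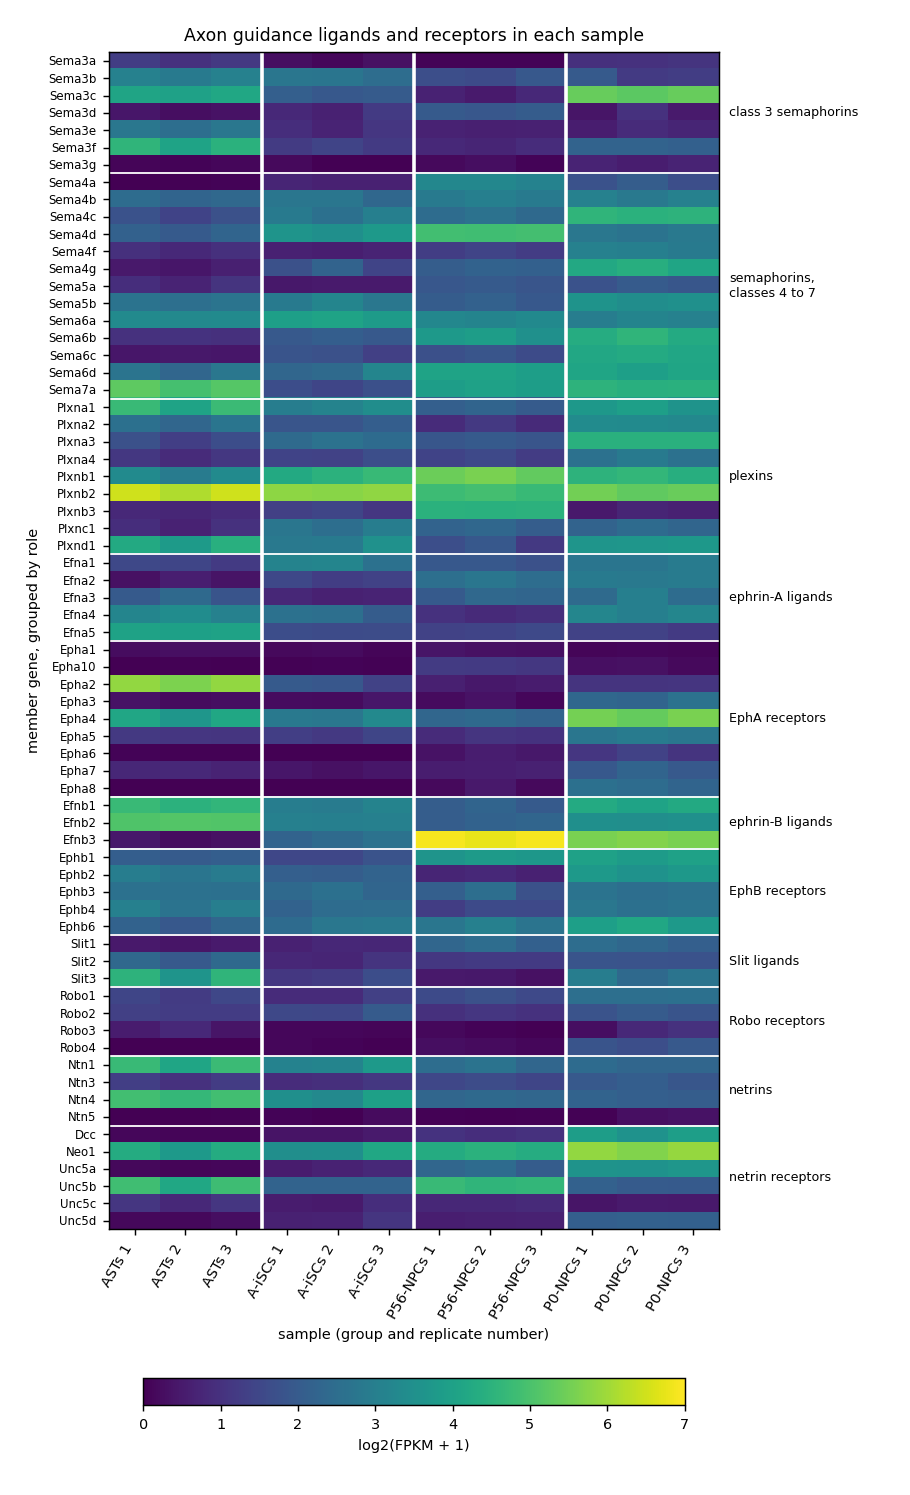
Level of each of the 68 members (rows, grouped by role) in each of the 12 samples (columns), as log2(FPKM + 1) on a colour scale from 0 to 7. Efnb3 is brightest in the P56-NPC samples and Plxnb2 in the AST samples, and many rows are brightest in the P0-NPC columns, where 59 members reached a mean of 1 FPKM.

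Groups were compared in pairs with limma on log2(FPKM + 1), over all genes with a mean of at least 1 FPKM in either group, and a gene was called where the p, adjusted by Benjamini and Hochberg's method, was under 0.05. The sphere culture was addressed by A-iSCs against ASTs. Of 50 members tested, 25 were lower in A-iSCs and 15 were higher, where 29.6% of all tested genes were lower, 25.2% higher and 54.8% either. The members' median log2 fold change was -0.40 and that of all tested genes -0.06. Without AST replicate 2 there were 25 lower and 13 higher members, and without A-iSC replicate 3 there were 27 and 17. All tested class 3 semaphorins (5 of 5) and Slits (2 of 2) were lower in A-iSCs, while 6 of 10 tested semaphorins of classes 4 to 7 were higher and 1 was lower. Of the 68 members, 18 were too low to be tested, and they moved either way. Sema3d ran from 0.568 to 1.26 FPKM in A-iSCs and 0.207 to 0.34 in ASTs, and Slit1 from 0.553 to 0.71 and 0.325 to 0.427. Dcc and Unc5a were also higher in A-iSCs, and Epha7 and Sema4f were lower. Plexins were split into 5 higher and 4 lower of 9. Of the other ligands, 2 of 3 ephrin-Bs, 3 of 5 ephrin-As and 2 of 3 tested netrins were lower. When the fragments were scaled by library size alone, without the median-of-ratios factor contained in the deposited values, the median of all genes moved from -0.06 to 0.13, the shares of all genes became 31.9% higher and 20.9% lower, and the members became 18 higher and 21 lower. Then 8 semaphorins of classes 4 to 7 were higher, 4 class 3 semaphorins and 3 plexins were lower, and of the EphB receptors 1 was higher and 1 lower.

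**Figure D2:**
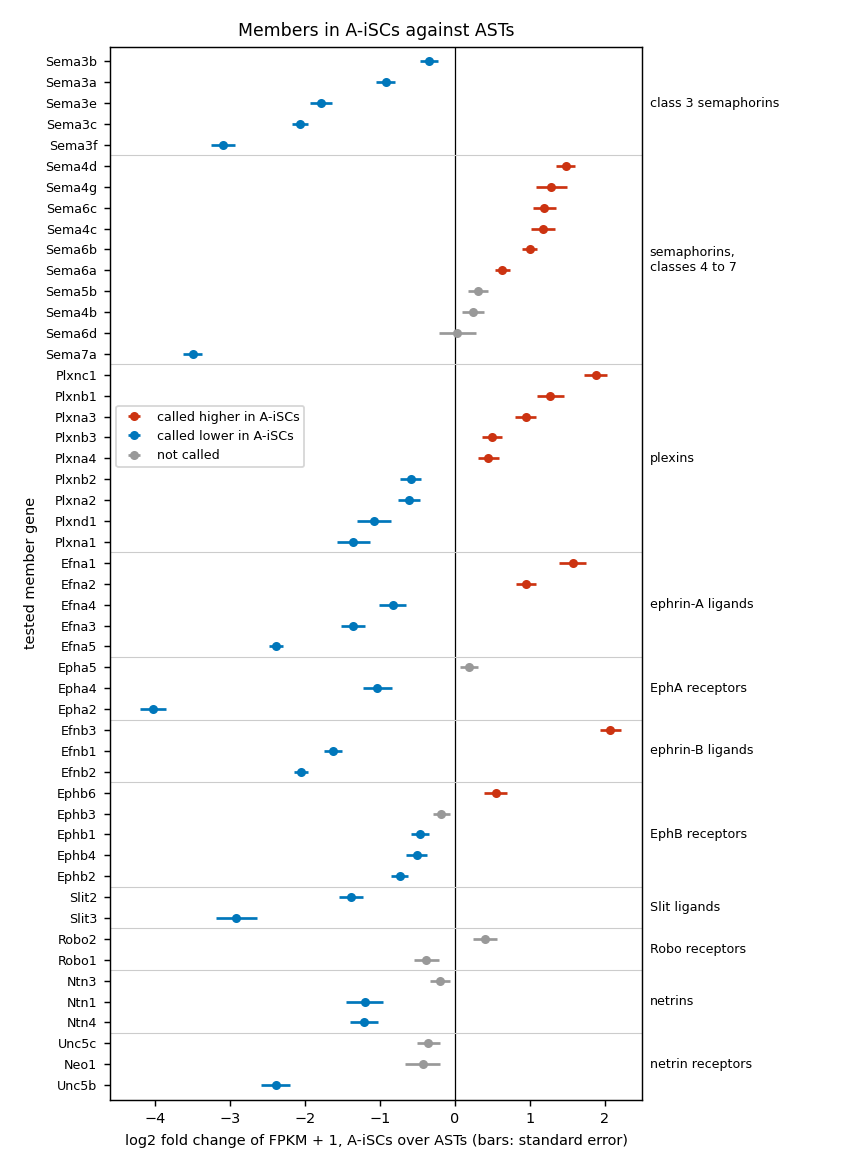
Log2 fold change of FPKM + 1, A-iSCs over ASTs, for the 50 tested members, with the standard error as bars and the role groups separated by lines. Epha2, Sema7a, Sema3f and Slit3 lie farthest to the left and Efnb3 and Plxnc1 farthest to the right, and all 5 tested class 3 semaphorins lie left of 0.

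Each NPC group was then set against ASTs, which served both comparisons as the common control. In P56-NPCs, 25 of 57 tested members were higher than in ASTs and 24 were lower, where 39.1% of all tested genes were higher, 39.8% lower and 78.9% either. Their median log2 fold change was 0.04 against -0.03 for all tested genes. In P0-NPCs, 39 of 61 tested members were higher than in ASTs and 18 were lower, where 38.1% and 40.9% of all tested genes were (79% in either direction), with a median of 1.0 for the members and -0.07 for all. Semaphorins of classes 4 to 7 were mostly higher in both NPC groups, 10 of 13 in P56-NPCs and 11 of 13 in P0-NPCs. EphA receptors were higher in P0-NPCs in 6 of 7 tested and in P56-NPCs in 1 of 4, which was no longer called when scaled by library size alone. Without AST replicate 2, P56-NPCs had 24 higher and 26 lower members and P0-NPCs 39 and 19. Scaling by library size alone gave 19 higher and 27 lower members in P56-NPCs (31.2% and 51.6% of all genes, all-gene median -0.34) and 40 higher and 12 lower in P0-NPCs (46.3% and 31.6%, median 0.21).

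A-iSCs were compared directly with each NPC group. Against P56-NPCs, 23 of 54 tested members were higher in A-iSCs and 21 lower, where 30.1% and 30.9% of all tested genes were (61% either), and the median was 0.14 (all genes 0.03). Against P0-NPCs, 43 of 60 tested members were lower in A-iSCs and 10 were higher, where 33.6% of all tested genes were lower, 31.5% higher and 65.1% either, and the median was -1.24 (all genes -0.02). All 3 Slits, all 3 ephrin-Bs and 6 of 7 EphA receptors were lower in A-iSCs than in P0-NPCs. The NPC groups themselves differed by 43 members higher and 9 lower in P0-NPCs of 62 tested, where 39% of all tested genes were higher, 39.7% lower and 78.8% either, with a median of 0.94 (all genes -0.01). Without A-iSC replicate 3 the counts were 23 higher and 22 lower against P56-NPCs, and 11 and 45 against P0-NPCs. Scaling by library size alone gave 29 higher and 17 lower members in A-iSCs against P56-NPCs (55.9% and 19.2% of all genes, all-gene median 0.49), 9 and 45 against P0-NPCs (28.6% and 36.1%, median -0.09), and 52 higher and 7 lower in P0-NPCs against P56-NPCs (61.2% and 22.3%, median 0.53).

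**Figure D3:**
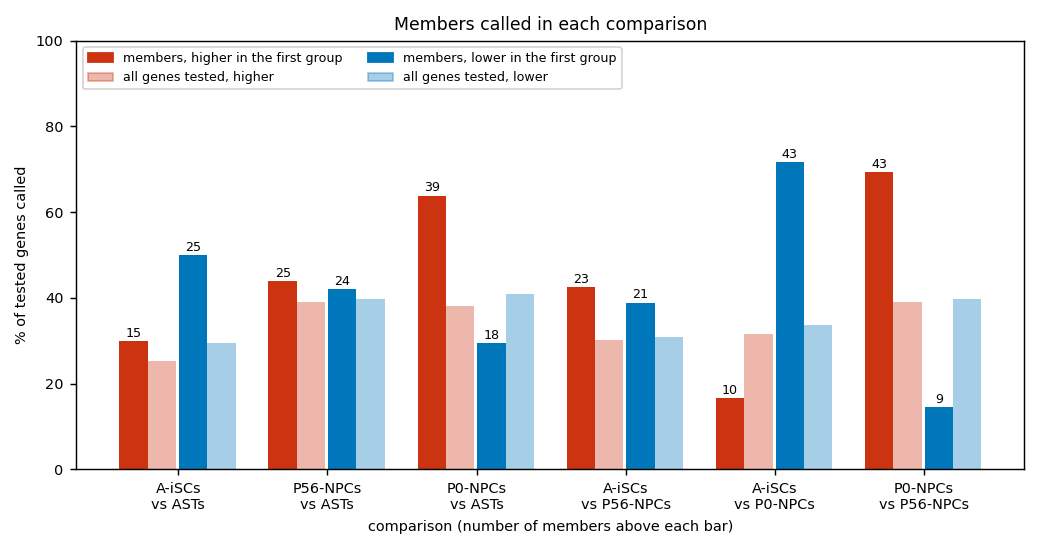
Share of tested members (solid bars, with the number of members above) and of all tested genes (pale bars) that were called higher (red) or lower (blue) in the first group of each comparison, in percent. The members' bars depart most from the pale bars where P0-NPCs are involved: 43 members were lower in A-iSCs than in P0-NPCs, and 43 were higher in P0-NPCs than in P56-NPCs.

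Among the secreted class 3 semaphorins, most of which act on plexin-A receptors, a different gene was the most abundant in each group. Sema3c, a cue for migrating cortical and neural crest cells, was at 16.1, 14.9 and 16.9 FPKM in ASTs, 3.36, 2.8 and 3.04 in A-iSCs, 0.597, 0.419 and 0.74 in P56-NPCs, and 40.2, 36.5 and 40.2 in P0-NPCs. The 4 groups did not overlap, and P0-NPCs were highest and P56-NPCs lowest. Its log2 fold change was -2.06 ± 0.11 (SE) in A-iSCs against ASTs (limma adjusted p = 1e-05) and 4.66 ± 0.09 in P0-NPCs against P56-NPCs (adjusted p = 2.3e-08). A-iSCs were lower than both ASTs and P0-NPCs (-3.30 ± 0.11 against P0-NPCs) and higher than P56-NPCs (1.36 ± 0.12). Sema3f, a repellent that uses neuropilin-2, was at 22.7, 15.6 and 21.1 FPKM in ASTs, 1.31, 1.72 and 1.26 in A-iSCs, 0.743, 0.647 and 0.841 in P56-NPCs, and 3.7, 3.67 and 3.44 in P0-NPCs. Each AST sample was above every other sample, and the fall in A-iSCs was -3.09 ± 0.16 (adjusted p = 1e-05), with means 13.9-fold apart. P56-NPCs (-3.56) and P0-NPCs (-2.16) were also lower than ASTs. Sema3b was at 7.39, 6.28 and 7.36 FPKM in ASTs, 5.68, 5.63 and 4.69 in A-iSCs, 2.19, 2.02 and 2.78 in P56-NPCs, and 2.92, 1.27 and 1.42 in P0-NPCs. Only ASTs and A-iSCs lay above 4 FPKM. A-iSCs exceeded P0-NPCs by 1.18 ± 0.21 (adjusted p = 0.0016), whereas the difference from ASTs (-0.34 ± 0.12, adjusted p = 0.045) lost its call in 11 of 15 alternative analyses.

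Sema3d, a guidance cue also known in heart and vessel development, was at 0.34, 0.207 and 0.257 FPKM in ASTs, 0.75, 0.568 and 1.26 in A-iSCs, 2.94, 2.75 and 3.09 in P56-NPCs, and 0.32, 0.995 and 0.431 in P0-NPCs. P56-NPCs were above every other sample, and differed by 1.63 ± 0.08 from ASTs, and P0-NPCs against P56-NPCs gave -1.33 ± 0.16 (adjusted p = 0.00012). The low means in ASTs and A-iSCs kept Sema3d out of the test between them. Sema3a, the founding growth cone repellent, and Sema3e, a ligand of Plxnd1, were lower in A-iSCs than in ASTs, with log2 fold changes of -0.92 and -1.78. Sema3g did not exceed 0.635 FPKM in any sample. Except for Sema3c, which was highest in P0-NPCs, the class 3 genes that were lower in A-iSCs had their highest means in ASTs. The mural and fibroblast marker sum was also largest in ASTs, although Pdgfrb was not (mean 11.1 in ASTs and 12.2 in P0-NPCs). The part of mural cells and fibroblasts in the difference was not tested.

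Semaphorins of classes 4 to 7 are mostly held at the membrane, and Sema7a was the tested member among them that fell in A-iSCs. Sema7a, anchored by a lipid and recognised by Plxnc1 and integrins, was at 37.1, 29.4 and 34.6 FPKM in ASTs, 2.15, 1.77 and 2.3 in A-iSCs, 13.8, 15 and 14 in P56-NPCs, and 21.8, 20.5 and 20.7 in P0-NPCs. The groups did not overlap, and A-iSCs were the lowest and ASTs the highest. The log2 fold change was -3.49 ± 0.13 against ASTs (adjusted p = 4.1e-06), -2.31 ± 0.10 against P56-NPCs and -2.84 ± 0.11 against P0-NPCs. Sema4d, a ligand of Plxnb1 made by oligodendrocytes and immune cells, was at 3.49, 2.93 and 3.81 FPKM in ASTs, 11.3, 10.2 and 12.5 in A-iSCs, 28.3, 27.9 and 29.2 in P56-NPCs, and 5.82, 5.33 and 6.17 in P0-NPCs. P56-NPCs were highest, A-iSCs second, and no groups overlapped. A-iSCs exceeded ASTs by 1.48 ± 0.13 (adjusted p = 7.6e-05) and P0-NPCs by 0.86 ± 0.11, and the change against P56-NPCs was -1.26 ± 0.10. The oligodendrocyte marker sum was highest in P56-NPCs and the microglial marker sum in A-iSCs, the groups with the most Sema4d. Of the microglial markers, P2ry12 was higher in P56-NPCs (mean 60.2) than in A-iSCs (7.30). The astrocyte marker sum had the same order of groups as Sema4d. Gfap and Aqp4 did not, with means of 970 and 92.4 in A-iSCs and 211 and 61.8 in P56-NPCs. The part of these cells in the Sema4d level was not tested.

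Sema4g was at 0.393, 0.336 and 0.535 FPKM in ASTs, 2.31, 3.66 and 1.7 in A-iSCs, 3.21, 3.56 and 3.44 in P56-NPCs, and 17.7, 19.8 and 16.5 in P0-NPCs. Every P0-NPC sample was above all others and every AST sample below, while A-iSCs and P56-NPCs overlapped. The rise over ASTs was 1.29 ± 0.20 in A-iSCs (adjusted p = 0.0015) and 3.74 ± 0.10 in P0-NPCs (adjusted p = 4.8e-08). Sema6c, of the transmembrane class 6, was at 0.352, 0.374 and 0.336 FPKM in ASTs, 2.56, 2.35 and 1.5 in A-iSCs, 2.3, 2.56 and 2.03 in P56-NPCs, and 17.5, 18.4 and 16.7 in P0-NPCs. It followed the same order, with A-iSCs and P56-NPCs overlapping, and changed by 1.19 ± 0.15 in A-iSCs and 3.77 ± 0.08 in P0-NPCs against ASTs. Sema6b was at 1.01, 1.04 and 0.963 FPKM in ASTs, 2.86, 3.25 and 2.91 in A-iSCs, 12.4, 14 and 10.5 in P56-NPCs, and 19.2, 23.1 and 18.5 in P0-NPCs. Here the groups did not overlap, and the log2 fold changes over ASTs were 1.0 in A-iSCs, 2.72 in P56-NPCs and 3.40 in P0-NPCs.

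Sema6a, a ligand of Plxna2 and Plxna4, was at 9.1, 8.79 and 9.13 FPKM in ASTs, 14.5, 15.8 and 13.4 in A-iSCs, 8.39, 7.91 and 9.08 in P56-NPCs, and 6.79, 7.93 and 7.37 in P0-NPCs. It was among the members highest in A-iSCs, by 0.64 ± 0.11 over ASTs (adjusted p = 0.0019) and 0.90 ± 0.11 over P0-NPCs, and the ASTs overlapped with P56-NPCs. Sema4a was at 0.011, 0.0365 and 0.0398 FPKM in ASTs, 0.661, 0.568 and 0.566 in A-iSCs, 8.43, 8.48 and 7.65 in P56-NPCs, and 2.39, 3.19 and 2.18 in P0-NPCs. AST samples held 1 to 4 fragments, so that the fitted change of 3.16 in P56-NPCs over ASTs depends on the added constant, and the better measured difference was between A-iSCs and P56-NPCs (-2.52 ± 0.09, adjusted p = 1.3e-06). P0-NPCs changed against P56-NPCs by -1.37 ± 0.11. Sema4c rose by 1.18 in A-iSCs and by 2.88 in P0-NPCs over ASTs. Sema4b, Sema5b and Sema6d did not pass the test between A-iSCs and ASTs, with 0.24 ± 0.14, 0.31 ± 0.13 and 0.04 ± 0.25, although Sema4b and Sema5b did when scaled by library size alone or without A-iSC replicate 3. The A-iSC samples ran from 3.91 to 8.02 FPKM in Sema6d, with replicate 3 the highest. Sema4f and Sema5a were too low in both cultures to be tested there, and both were higher in each NPC group than in ASTs, with Sema4f in P56-NPCs losing its call when scaled by library size alone.

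Plexins, the receptors of semaphorins, included Plxnb2, the member with the highest mean over all 12 samples. Plxnb2, a receptor for class 4 semaphorins required in early neural development, was at 89.6, 70.7 and 89.7 FPKM in ASTs, 55.2, 53 and 56.2 in A-iSCs, 27, 29.2 and 25.1 in P56-NPCs, and 44.6, 38 and 41.2 in P0-NPCs. ASTs were highest and P56-NPCs lowest, and no groups overlapped. A-iSCs differed from ASTs by -0.59 ± 0.14 (adjusted p = 0.0088), a call lost when scaled by library size alone. Plxnb1, the receptor of Sema4d, was higher in A-iSCs (18.0, 21.4 and 25.4 FPKM) than in ASTs (9.23, 6.56 and 9.29), by 1.27 ± 0.18 (adjusted p = 0.0008). A-iSCs overlapped with P0-NPCs in Plxnb1 (-0.03 ± 0.15, not called) and were below P56-NPCs (-0.97 ± 0.15). Plxnb3, an oligodendrocyte-lineage plexin that binds Sema5a, was at 0.753, 0.668 and 0.804 FPKM in ASTs, 1.49, 1.77 and 1.14 in A-iSCs, 21.2, 20.7 and 21.5 in P56-NPCs, and 0.384, 0.656 and 0.554 in P0-NPCs. Every P56-NPC sample was above 20 FPKM and every other sample below 2. The log2 fold change of P56-NPCs over ASTs was 3.67 ± 0.07 (adjusted p = 2.3e-08) and that of P0-NPCs over P56-NPCs -3.86 ± 0.08. The oligodendrocyte marker sum was likewise high in P56-NPCs alone, and its part was not tested.

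Plxnc1, the receptor of Sema7a, was at 0.879, 0.597 and 0.993 FPKM in ASTs, 5.66, 4.76 and 6.78 in A-iSCs, 3.68, 4.02 and 3.17 in P56-NPCs, and 3.72, 4.41 and 3.88 in P0-NPCs. A-iSCs were above every other sample. The rise over ASTs was 1.88 ± 0.15 (adjusted p = 5.7e-05), with means 6.97-fold apart, opposite in sign to the change of its ligand. Over P56-NPCs it was 0.54 ± 0.14, and over P0-NPCs 0.42 ± 0.14, the latter lost in several alternatives. The microglial marker sum was also highest in A-iSCs, although P2ry12 was higher in P56-NPCs (mean 60.2) than in A-iSCs (7.30). The part of microglia was not tested. Plxnd1, a receptor of Sema3e known from vessels, was at 18.2, 13.1 and 20.4 FPKM in ASTs, 6.18, 6.45 and 10.6 in A-iSCs, 2.19, 2.79 and 1.23 in P56-NPCs, and 11.6, 11.7 and 12.2 in P0-NPCs. A-iSCs lay below ASTs (-1.08 ± 0.23, adjusted p = 0.0062) and above P56-NPCs (1.5 ± 0.25). Among the plexin-As, the receptors for class 3 and class 6 semaphorins, Plxna3 was at 2.3, 1.48 and 2.12 FPKM in ASTs, 4.35, 5.24 and 4.49 in A-iSCs, 2.67, 2.98 and 2.63 in P56-NPCs, and 20.7, 20.9 and 20.8 in P0-NPCs. P0-NPCs stood above all others, by 2.54 ± 0.06 over P56-NPCs (adjusted p = 6.3e-08), and A-iSCs were above ASTs by 0.95 ± 0.14. Plxna1 and Plxna2 were lower in A-iSCs than in ASTs (-1.35 and -0.61), and Plxna4 was higher (0.45), a call lost when each AST replicate in turn was left out.

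The make-up of the ephrin-B ligands differed between the groups. In A-iSCs and in both NPC groups Efnb3 was higher than in ASTs while Efnb1 and Efnb2 were lower (Efnb1 in P0-NPCs lost its call when scaled by library size alone), whereas all 3 were lower in A-iSCs than in P0-NPCs. Efnb3, a ligand of midline and corticospinal neurons that is also found on myelin, was at 0.375, 0.186 and 0.254 FPKM in ASTs, 3.65, 4.32 and 5.18 in A-iSCs, 119, 108 and 119.8 in P56-NPCs, and 47.1, 50.9 and 47.5 in P0-NPCs. The groups did not overlap, and ASTs were below 0.4 FPKM and P56-NPCs above 100. A-iSCs rose over ASTs by 2.07 ± 0.14 (adjusted p = 2.6e-05), with means 16.1-fold apart, and remained below P56-NPCs (-4.45 ± 0.13) and P0-NPCs (-3.21 ± 0.13). Efnb3 was the called member with the largest log2 fold change over ASTs in A-iSCs, P56-NPCs (6.52) and P0-NPCs (5.29). Oligodendrocyte markers were highest in P56-NPCs and neuronal markers in P0-NPCs, the groups with the most Efnb3, and their part was not tested. Efnb2, a ligand of arterial endothelium, astrocytes and neural precursors, was at 33, 33.7 and 33.3 FPKM in ASTs, 7.35, 7.15 and 7.35 in A-iSCs, 3.15, 3.58 and 3.87 in P56-NPCs, and 10.3, 10.1 and 10.5 in P0-NPCs. ASTs were highest, P56-NPCs lowest and no groups overlapped, and A-iSCs were lower than ASTs by a change of -2.05 ± 0.10 (adjusted p = 6.9e-06). Efnb1 fell from 23.7 ± 2.11 (SD, n = 3) FPKM in ASTs to 7.0 ± 0.648 in A-iSCs, a change of -1.63 ± 0.12, and was 3.3 ± 0.432 in P56-NPCs and 17.4 ± 1.52 in P0-NPCs. As a share of the summed ephrin-B level, Efnb3 was 94.4% ± 0.68 (SD, n = 3) in P56-NPCs and 63.7% ± 2.39 in P0-NPCs, while Efnb2 was 58.2% ± 2.49 in ASTs and 39.1% ± 2.56 in A-iSCs.

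Of the 5 EphB receptors, which bind these ligands, 3 were lower in A-iSCs than in ASTs, 1 was higher and 1 was not called, where 29.6% of all tested genes were lower and 25.2% higher. Ephb2, which acts at synapses and in commissural axons, was at 6.85, 5.57 and 6.56 FPKM in ASTs, 3.33, 3.15 and 3.72 in A-iSCs, 0.644, 0.736 and 0.559 in P56-NPCs, and 12.7, 10.9 and 12.4 in P0-NPCs. P0-NPCs were highest, P56-NPCs lowest and no groups overlapped. A-iSCs differed from ASTs by -0.74 ± 0.12 (adjusted p = 0.0016) and from P56-NPCs by 1.42 ± 0.10, and P0-NPCs from P56-NPCs by 2.98 ± 0.08. Ephb1, a receptor in the retinal and adult neurogenic pathways, was at 3.26, 2.99 and 3.23 FPKM in ASTs, 1.84, 1.82 and 2.44 in A-iSCs, 11.4, 13.1 and 12.2 in P56-NPCs, and 15.2, 13.2 and 15.1 in P0-NPCs. Both NPC groups were above 11 FPKM and both cultures below 4. It was -2.13 ± 0.11 in A-iSCs against P56-NPCs and -2.36 ± 0.12 against P0-NPCs, while the call against ASTs (-0.46 ± 0.12) was lost in 6 alternatives, among them scaling by library size alone and leaving out AST replicate 1, AST replicate 3 or A-iSC replicate 2. Ephb4, the receptor of venous endothelium, and the kinase-inactive Ephb6 differed from ASTs by -0.51 and 0.55, and both calls were lost in 5 or 6 alternatives. Ephb3 was not called (-0.18 ± 0.11), and its means lay between 3 and 6 FPKM in all 4 groups.

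Ephrin-A ligands were divided in A-iSCs, where Efna1 and Efna2 were higher than in ASTs and Efna3, Efna4 and Efna5 lower. Efna1, a ligand of Epha2 induced in endothelium, was at 1.89, 1.75 and 1.29 FPKM in ASTs, 7.78, 8.02 and 5.08 in A-iSCs, 2.77, 2.83 and 2.32 in P56-NPCs, and 5.64, 5.63 and 6.55 in P0-NPCs. The A-iSC samples were all above the ASTs, by 1.57 ± 0.18 (adjusted p = 0.00034), and overlapped with P0-NPCs. Efna5, which guides retinal axons to the midbrain, was at 15.4, 14.9 and 15.3 FPKM in ASTs, 2.15, 2.03 and 2.11 in A-iSCs, 1.61, 1.7 and 1.94 in P56-NPCs, and 1.58, 1.58 and 1.27 in P0-NPCs. ASTs were above 14 FPKM and every other sample was below 2.2. The change was -2.39 ± 0.09 in A-iSCs (adjusted p = 4.9e-06), -2.56 ± 0.07 in P56-NPCs and -2.71 ± 0.09 in P0-NPCs. Efna4 was at 8.09, 9.65 and 7.41 FPKM in ASTs, 5.09, 4.87 and 3.1 in A-iSCs, 1.01, 0.779 and 0.911 in P56-NPCs, and 8.28, 7.07 and 8.33 in P0-NPCs. ASTs and P0-NPCs overlapped, A-iSCs were lower than ASTs by a change of -0.82 ± 0.18 and P56-NPCs were lowest (1.47 ± 0.17 for A-iSCs over P56-NPCs). Efna2 rose in A-iSCs from 0.355 ± 0.136 (SD, n = 3) to 1.62 ± 0.219 FPKM, by 0.95 ± 0.13, and Efna3 changed by -1.36 ± 0.16. Some exonic bases of Efna3 and Efna4 are shared with an antisense gene, and reads from the partners cannot be told apart without strand, although those genes held at most 16 and 13 fragments in any sample.

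Among the EphA receptors, which bind these ligands, Epha2 was the most abundant in ASTs and Epha4 in the other 3 groups. Epha2, a receptor of epithelial and proliferating cells, was at 57, 48.1 and 57.3 FPKM in ASTs, 2.94, 2.74 and 1.62 in A-iSCs, 0.518, 0.36 and 0.455 in P56-NPCs, and 1.08, 1.07 and 1.12 in P0-NPCs. Each AST sample was above 48 FPKM and every other sample below 3. The log2 fold change in A-iSCs was -4.02 ± 0.18 (adjusted p = 6.1e-06), with means 22.2-fold apart, and Epha2 had the most negative called change of all members in P56-NPCs (-5.25) and P0-NPCs (-4.72) too. Epha4, a receptor of neurons and astrocytes that binds ephrins of both types, was at 16.7, 11.9 and 17.1 FPKM in ASTs, 6.18, 5.86 and 8.82 in A-iSCs, 3.93, 4.25 and 3.65 in P56-NPCs, and 45.3, 40 and 46.9 in P0-NPCs. P0-NPCs were highest, P56-NPCs lowest and no groups overlapped. A-iSCs were lower than ASTs (-1.03 ± 0.19, adjusted p = 0.0033), and P0-NPCs exceeded P56-NPCs by 3.19 ± 0.08 (adjusted p = 6.9e-08). Epha2 made up 75.6% ± 1.36 (SD, n = 3) of the summed EphA level in ASTs, and Epha4 59.6% ± 7.17 in A-iSCs, 48.2% ± 1.03 in P56-NPCs and 68% ± 2.70 in P0-NPCs. Epha3, Epha5, Epha6, Epha7 and Epha8 had their highest means in P0-NPCs, where Epha5 reached 5.71, 6.49 and 5.89 FPKM. Epha8 was at 4.98, 4.61 and 3.8 FPKM there, with 0 or 1 fragment in each AST and A-iSC sample. Epha10 was above 1 FPKM in P56-NPCs alone (1.34, 1.29 and 1.18), and AST samples held at most 3 of its fragments. Epha1 stayed at or below 0.323 FPKM, and shares 236 of its exonic bases with Zyx on the opposite strand, which held up to 5317 fragments.

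**Figure D4:**
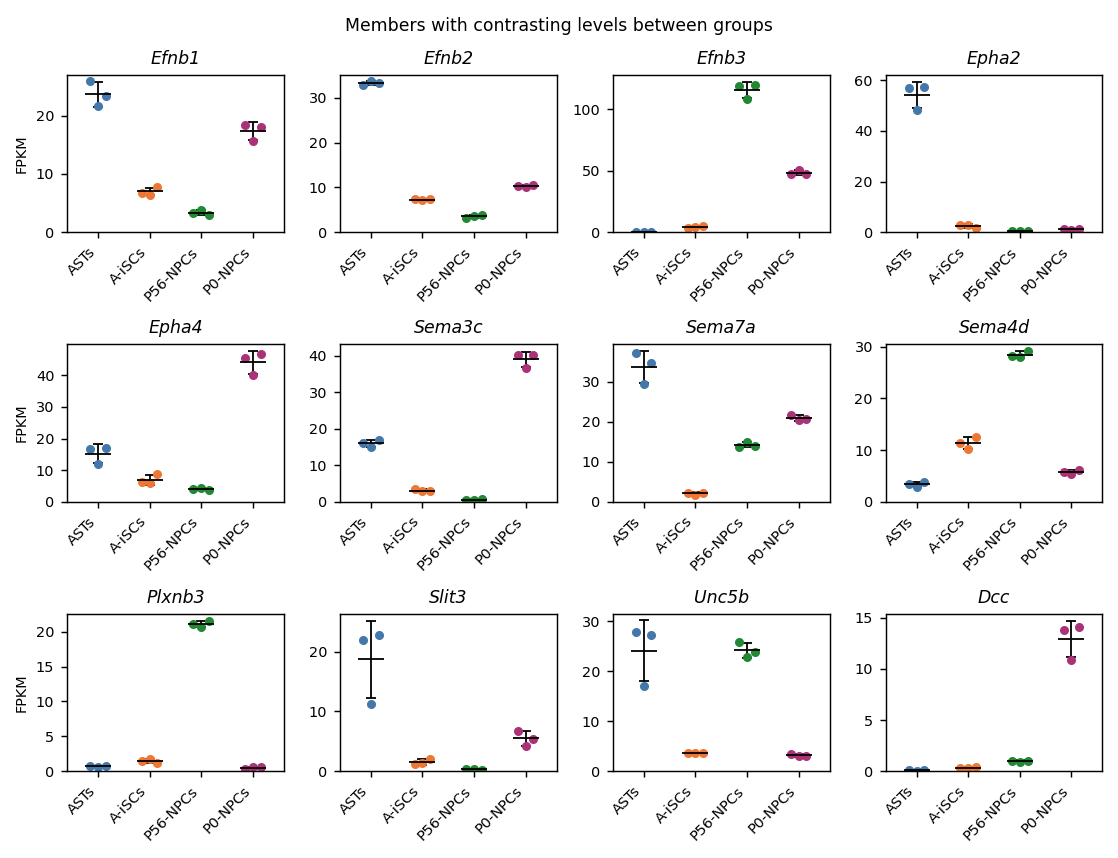
FPKM of 12 members in each sample (coloured points, 3 per group), with the group mean and its standard deviation in black and a linear axis from 0 in each panel. Epha2 is high in ASTs alone, Plxnb3 in P56-NPCs alone and Dcc in P0-NPCs alone, Unc5b is high in ASTs and P56-NPCs, and Efnb3 runs against Efnb1 and Efnb2 in P56-NPCs.

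Both tested Slit ligands were lower in A-iSCs than in ASTs, while the Robo receptors tested were not called, although 1 was called higher when scaled by library size alone and 1 lower with upper-quartile scaling. Slit3, a Slit of mesenchyme and vessels, was at 21.9, 11.3 and 22.9 FPKM in ASTs, 1.18, 1.32 and 2.12 in A-iSCs, 0.389, 0.359 and 0.25 in P56-NPCs, and 6.78, 4.26 and 5.47 in P0-NPCs. AST replicate 2 was the lowest of its group and still above every sample of the other groups. The change in A-iSCs was -2.91 ± 0.27 (adjusted p = 0.00012) and lay between -3.22 and -2.74 when each sample was left out. P56-NPCs were lowest (-3.83 ± 0.25 against ASTs). Slit2, the midline repellent, changed by -1.38 ± 0.16 in A-iSCs. Slit1, the Slit of developing neurons, ran from 0.325 to 0.427 FPKM in ASTs and from 0.553 to 0.71 in A-iSCs, too low to be tested between them. It was 4.02 ± 0.603 (SD, n = 3) FPKM in P56-NPCs and 4.02 ± 0.646 in P0-NPCs. Slit3 accounted for 81.2% ± 2.91 of the summed Slit level in ASTs, and Slit1 for 71.6% ± 2.35 in P56-NPCs. Slit3 was highest in ASTs, as was the mural and fibroblast marker sum, although Pdgfrb was not (mean 11.1 in ASTs and 12.2 in P0-NPCs). The part of those cells was not tested.

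Robo1, the most abundant Slit receptor by its mean over all 12 samples, was at 1.75, 1.32 and 1.83 FPKM in ASTs, 0.805, 0.823 and 1.5 in A-iSCs, 1.96, 2.33 and 1.94 in P56-NPCs, and 4.83, 4.91 and 4.94 in P0-NPCs. P0-NPCs were above every other sample, and A-iSCs against ASTs gave -0.38 ± 0.16 (adjusted p = 0.088). Without A-iSC replicate 3, Robo1 was called lower in A-iSCs, at -0.53. Robo2 gave 0.40 ± 0.16 (adjusted p = 0.064), and A-iSCs were higher than P56-NPCs by 0.64 ± 0.16. The A-iSC samples ran from 1.82 to 3.0 FPKM in Robo2, with replicate 3 the highest. Robo4, the Robo of endothelial cells, was at 2.52, 2.22 and 2.85 FPKM in P0-NPCs and below 0.21 in every other sample, and the endothelial markers were likewise highest in P0-NPCs. Their part was not tested. Robo3, a receptor of commissural neurons, reached 1 FPKM at most.

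Ntn4 and Ntn1 were the most abundant netrins and were highest in ASTs. Ntn4, a netrin of basement membranes that binds laminin, was at 28.2, 24.3 and 28.3 FPKM in ASTs, 10.2, 8.86 and 14.8 in A-iSCs, 3.99, 4.21 and 3.93 in P56-NPCs, and 3.7, 3.36 and 3.14 in P0-NPCs. A-iSCs lay between ASTs and both NPC groups without overlap. The change was -1.21 ± 0.19 against ASTs (adjusted p = 0.0013), 1.25 ± 0.17 against P56-NPCs and 1.45 ± 0.18 against P0-NPCs. Ntn1, the classical guidance netrin, was at 25.7, 16.2 and 26.3 FPKM in ASTs, 7.54, 7.91 and 12.6 in A-iSCs, 4.64, 5.39 and 3.94 in P56-NPCs, and 4.42, 3.95 and 3.97 in P0-NPCs. The same order held, with -1.20 ± 0.24 against ASTs (adjusted p = 0.005) and 0.99 ± 0.18 against P0-NPCs, and both NPC groups overlapped. A-iSC replicate 3 was the highest of its group for both genes and AST replicate 2 the lowest of its group, and without either the calls against ASTs were kept. Ntn3, which shares 89 exonic bases with Tbc1d24 on the same strand (up to 2720 fragments), was not called (-0.19 ± 0.13), and Ntn5 stayed at or below 0.279 FPKM.

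The netrin receptors differed by group. Unc5b, a repellent receptor also known from vessels, was at 27.9, 17 and 27.3 FPKM in ASTs, 3.71, 3.66 and 3.68 in A-iSCs, 25.8, 22.8 and 24 in P56-NPCs, and 3.48, 3.03 and 2.97 in P0-NPCs. ASTs and P56-NPCs were high and overlapped, and gave 0.04 ± 0.18 between them (adjusted p = 0.86), and A-iSCs and P0-NPCs were below 4 FPKM in all samples. A-iSCs changed by -2.39 ± 0.19 against ASTs (adjusted p = 5.4e-05) and -2.42 ± 0.09 against P56-NPCs. Neo1, a receptor shared by netrins and repulsive guidance molecules, was at 18.8, 12.7 and 18.8 FPKM in ASTs, 9.9, 10.3 and 16.9 in A-iSCs, 18.7, 21.1 and 19.3 in P56-NPCs, and 57.7, 49.6 and 58.2 in P0-NPCs. P0-NPCs were above all others, and A-iSCs overlapped with ASTs (-0.43 ± 0.24, adjusted p = 0.16). Without A-iSC replicate 3, Neo1 was called lower in A-iSCs, at -0.66. Dcc, the attractive netrin receptor of neurons, was at 0.086, 0.0711 and 0.0777 FPKM in ASTs, 0.301, 0.294 and 0.433 in A-iSCs, 1.05, 0.885 and 1.01 in P56-NPCs, and 13.8, 10.9 and 14 in P0-NPCs. Every P0-NPC sample was above 10 FPKM and every other sample near 1 or below. The change of A-iSCs against P0-NPCs was -3.37 ± 0.13 (adjusted p = 8.1e-07). Unc5a was at 0.10, 0.071 and 0.0904 FPKM in ASTs, 0.44, 0.585 and 0.734 in A-iSCs, 3.97, 4.42 and 3.13 in P56-NPCs, and 11.1, 10.9 and 11.9 in P0-NPCs. The groups did not overlap, and P0-NPCs were highest, with 3.50 ± 0.08 over ASTs and -2.96 ± 0.11 for A-iSCs against P0-NPCs. It shares 34 exonic bases with Hk3 on the opposite strand, which held up to 1266 fragments. Unc5c, the receptor of cerebellar and spinal axons, was not called in A-iSCs (-0.35 ± 0.16) unless A-iSC replicate 3 was left out, and Unc5d was above 3 FPKM in P0-NPCs alone. The neuronal marker sum was also highest in P0-NPCs, and its part in Dcc, Unc5a and Unc5d was not tested.

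**Figure D5:**
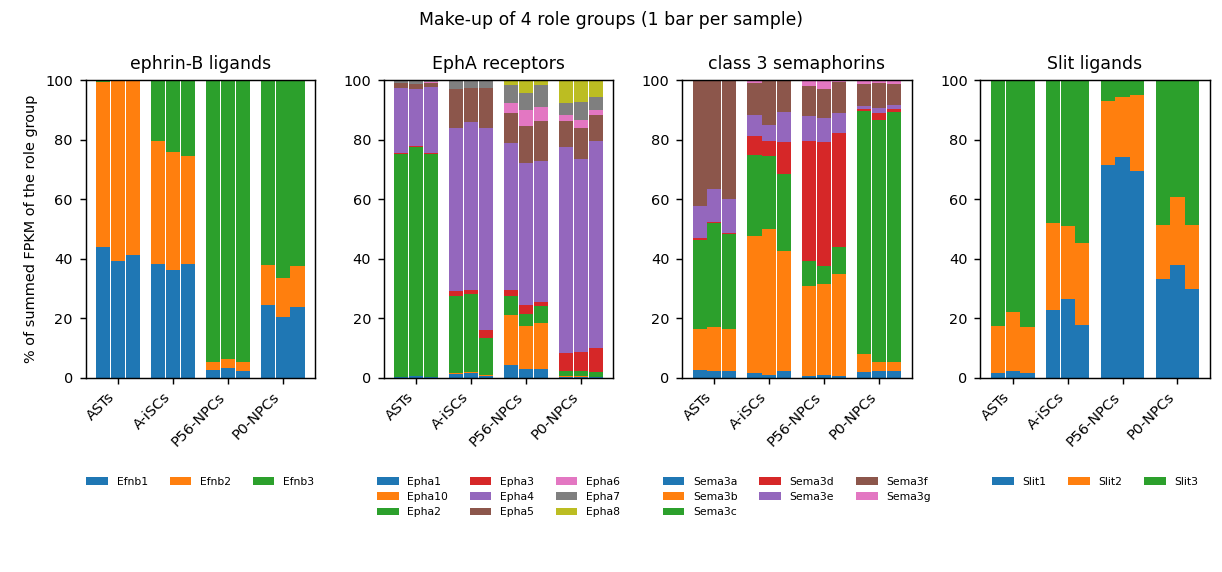
Share of each member in the summed FPKM of its role group, in percent, with 1 stacked bar per sample and 3 samples per group, for the ephrin-B ligands, EphA receptors, class 3 semaphorins and Slits. The dominant gene differs between groups: Efnb2 (58.2%), Epha2 (75.6%), Sema3f (39.6%) and Slit3 (81.2%) lead in ASTs, and Efnb3 (94.4%), Epha4 (48.2%), Sema3d (40.1%) and Slit1 (71.6%) in P56-NPCs.

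Other genes of the pathways were taken from lists of 14 co-receptors and partner ligands and 28 intracellular effectors. In A-iSCs against ASTs, 4 of 10 tested co-receptors and partners were higher and 2 were lower, where 25.2% of all tested genes were higher and 29.6% lower. Chl1, an adhesion molecule that joins semaphorin receptor complexes, rose by 1.68 ± 0.33 (adjusted p = 0.0041), from 0.867 ± 0.132 (SD, n = 3) to 5.52 ± 3.53 FPKM. A-iSC replicate 3 was its highest sample of the cultures, and without it the change was 1.27. Draxin, a netrin and Dcc antagonist, rose by 1.64 ± 0.16. Rgma, a ligand of Neo1, and Ntng2 also rose, and Flrt2 and Flrt3, adhesion molecules that bind Unc5 receptors, fell (-1.34 and -1.25). Both neuropilins, Nrp1 and Nrp2, were tested and not called. Of 27 tested effectors, 11 were lower and 4 higher. Rnd1, a small GTPase bound by plexins, was at 92.0 ± 5.96 FPKM in ASTs and 4.29 ± 0.304 in A-iSCs, a change of -4.14 ± 0.11 (adjusted p = 3.1e-06), and Chn2, a chimaerin of the Rac pathway, was higher (0.95 ± 0.12). The actin regulators Vasp and Enah and the semaphorin effector Dpysl2 were among the genes that fell (-1.21, -0.87 and -1.16), and the call of Dpysl2 was lost in 5 alternatives, among them scaling by library size alone and leaving out AST replicate 1 or 2. Over both lists, 8 genes were higher and 13 lower in A-iSCs than in ASTs, against 7 and 11 without AST replicate 2, 9 and 16 without A-iSC replicate 3, and 11 and 10 when scaled by library size alone. Against P0-NPCs, 12 of 13 tested co-receptors and partners and 19 of 27 effectors were lower in A-iSCs, where 33.6% of all tested genes were.

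Promoter sequences were examined for what the called members share besides their names. RefSeq windows of 250 bases before a start site (GRCm38.p6) were matched for 58 of the 68 members. The GC box (GGGCGG on either strand), a site of Sp family factors, was found in 70.3% of the 74 member promoters and in 32.7% of all 32851 promoters, and the median number of CpG dinucleotides was 15.5 against 6. The shares were close among the members lower in A-iSCs (78.3% of 23 promoters from 21 genes) and those higher (77.8% of 18 promoters from 12 genes). A gene with several start sites was counted more than once. The TEAD motif (GGAATG) was found in 10.8% of member and 12.6% of all promoters, the AP-1 motif (TGACTCA) in 2.7% and 4.46%, the E-box CAGCTG in 16.2% and 13%, and the CArG box in 2.7% and 1.47%. Of the 23 promoters of members lower in A-iSCs, 3 held the TEAD motif, 0 the AP-1 motif, 1 the E-box and 0 the CArG box, and of the 18 of those higher, 1, 2, 4 and 1 did, counts too small to be compared. These matches describe letters in the window and not bound sites, and the promoters of all genes include genes that are silent in these samples.

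The promoters of 2 members with a strong fall and 2 with a rise in A-iSCs are shown, among members with a RefSeq window outside the deposited gene, for the range of base composition they span. Each runs 5′ to 3′ on the gene's strand and ends at the base before the start site, and capitals mark matches to the TEAD motif (GGAATG or CATTCC) and the GC box (GGGCGG or CCGCCC). Epha2 lies on the plus strand at chr4:141300971-141301220 and holds 2 TEAD matches, 1 GC box and 9 CpG. Sema7a, plus strand at chr9:57939862-57940111, holds 2 GC boxes and 17 CpG. Plxnc1, minus strand at chr10:94944846-94945095, holds 4 GC boxes and 22 CpG. Efna2, plus strand at chr10:80179232-80179481, holds 2 GC boxes and 25 CpG. Epha2 has the fewest CpG of these, nearer the median of all promoters than that of the members, and no relation of motif to change was tested.
Epha2: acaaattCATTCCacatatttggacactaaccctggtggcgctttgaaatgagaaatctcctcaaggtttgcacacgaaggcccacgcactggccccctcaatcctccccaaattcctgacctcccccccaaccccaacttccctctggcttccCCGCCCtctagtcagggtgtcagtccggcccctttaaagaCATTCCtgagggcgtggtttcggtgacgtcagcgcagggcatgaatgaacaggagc
Sema7a: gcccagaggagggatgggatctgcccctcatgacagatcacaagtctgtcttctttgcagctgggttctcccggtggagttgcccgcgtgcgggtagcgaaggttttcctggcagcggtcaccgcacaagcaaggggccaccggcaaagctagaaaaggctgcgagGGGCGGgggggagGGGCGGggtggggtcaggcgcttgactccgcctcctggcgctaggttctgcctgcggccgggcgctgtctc
Plxnc1: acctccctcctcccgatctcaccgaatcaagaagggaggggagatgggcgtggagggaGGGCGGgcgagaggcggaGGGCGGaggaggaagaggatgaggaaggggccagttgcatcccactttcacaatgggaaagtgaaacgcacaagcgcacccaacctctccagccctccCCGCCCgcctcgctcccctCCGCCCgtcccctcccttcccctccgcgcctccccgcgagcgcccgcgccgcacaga
Efna2: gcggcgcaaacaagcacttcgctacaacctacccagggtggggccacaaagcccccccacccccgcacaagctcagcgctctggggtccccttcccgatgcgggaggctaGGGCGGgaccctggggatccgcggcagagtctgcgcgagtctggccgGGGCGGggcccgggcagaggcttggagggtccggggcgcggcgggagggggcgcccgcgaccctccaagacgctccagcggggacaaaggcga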

How the data were processed

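RNA had been extracted from 3 samples of each of the 4 groups (12 in all) and sequenced as paired-end reads from non-UMI libraries after removal of adapter, poly-N and low-quality reads. The authors deposited a table of FPKM (fragments per kilobase of gene, relative to library size) with 1 column per sample. The unit was read from the numbers: FPKM times gene length gave whole fragments for 100% of values (within 0.01) with 1 step per sample, and the implied library sizes were 0.744 to 1.22 times the counted fragments, and equalled median-of-ratios factors times 1 constant in all 12 samples (within a relative 0.0001, over 17301 genes with a fragment in every sample). The submitters' processing notes name Bowtie 0.12.2 and mm8, whereas the positions of all 68 members equalled GENCODE M21 on GRCm38. Strand-specific counting is not given in the sources used here, and 17 members share exonic bases with another gene.

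Groups were mapped from the sample titles and columns from their names. Log2(FPKM + 1) values were fitted with limma 3.58.1 in R 4.3.3 (lmFit, eBayes with a trend) for the samples of 2 groups at a time, over genes with a mean of at least 1 FPKM in either group, with Benjamini-Hochberg adjustment over all of them and a threshold of 0.05. Fold changes on this scale understate changes of low genes. DESeq2, which the study used, was not run here, and limma-voom on the recovered fragments is among the alternatives. The fit was tested on simulated data, where it recovered most changed genes in the right direction and unchanged genes made up more of its calls than the threshold allows. The alternatives were scaling by library size alone, upper-quartile scaling, no filter on low genes, a fit of all 4 groups, a replicate block, a pseudocount of 0.1, an absolute log2 fold change above 1, an adjusted p under 0.01, limma-voom on recovered fragments, and leaving out each sample.

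Per-sample values are given for the 5 largest and 5 smallest called changes of each comparison and for the most abundant member of each role group, and the remaining members by means, counts and ranges, except that values of single samples were added for Plxnb1, Epha5, Epha8, Epha10 and Robo4 after they were seen. Of the other pathway genes, Chl1 and Rnd1 were named by rule (the largest and smallest called change over both lists) and the rest after their values were seen. Motifs were searched in RefSeq promoters on both strands. The members and lists were chosen with earlier results of these data known. Python 3.11.15 with pandas 2.3.3, numpy 2.4.6 and matplotlib 3.10.9 was used. No sample was left out.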

Additional observations from a re-analysis of the deposited data

How the results depend on the processing

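Of the member calls, 33 of 40 (A-iSCs against ASTs), 43 of 49 (P56-NPCs against ASTs), 51 of 57 (P0-NPCs against ASTs), 40 of 44 (A-iSCs against P56-NPCs), 49 of 53 (A-iSCs against P0-NPCs) and 48 of 52 (P0-NPCs against P56-NPCs) were kept in every alternative except the stricter thresholds. Over all 344 tested changes of members, 20 turned sign in some alternative, and 1 of these had been called. Among the members given with per-sample values by rule, 1541 values kept their direction and side of the threshold, 55 lost the call, 5 gained it and 4 changed sign. Scaling by library size alone turned Neo1 in P56-NPCs against ASTs to -0.0835, Efna4 in P0-NPCs against ASTs to 0.19 and Ntn4 in P0-NPCs against P56-NPCs to 0.30, and leaving out AST replicate 2 turned Efna4 to 0.0213. Over all samples left out in turn, Efna4 ran from -0.1494 to 0.0213. Of these only Ntn4 had been called. It was called in the opposite direction when scaled by library size alone and lost its call in 12 of the other 14 alternatives, and the cause was not tested. With an absolute log2 fold change above 1, by construction a stricter call, the members higher in A-iSCs fell to 8 against ASTs, 8 against P56-NPCs and 2 against P0-NPCs, the members lower in P0-NPCs than in ASTs to 10, and the listed pathway genes in A-iSCs against ASTs to 4 higher and 7 lower, with 8 lower at an adjusted p under 0.01. Leaving out single samples gave 13 to 17 higher and 22 to 27 lower members in A-iSCs against ASTs. Shares of all tested genes were taken for the main fit and the scalings only. Member counts at stricter thresholds or with a sample left out therefore show only how stable the member calls were. Members at a few fragments, such as Epha8, Epha10, Robo4 and Sema4a in ASTs, are limited by depth.

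The replicate numbers did not mark shared batches in the labels, and same-numbered samples of A-iSCs and ASTs correlated at -0.41, 0.35 and 0.45 in their deviations from the group means, so the numbers were not taken as pairs. With the replicate number as a block, 15 members were higher and 24 lower in A-iSCs than in ASTs, 23 and 24 in P56-NPCs than in ASTs, 39 and 18 in P0-NPCs than in ASTs, 23 and 21 in A-iSCs than in P56-NPCs, 8 and 43 in A-iSCs than in P0-NPCs, and 43 and 8 in P0-NPCs than in P56-NPCs, with 8 and 12 listed pathway genes in A-iSCs against ASTs. The share of all tested genes called with the block was not taken, so these counts show only the stability of the calls.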
